A study of Mus musculus with 11 samples.

Results

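A set of 10 genes that mark neurons of the thalamus, the tissue directly beneath and beside the habenula, was followed across 11 RNA-seq libraries of dissected mouse lateral habenula. They are Prkcd, Tnnt1, Ramp3, Synpo2, Adarb1, Plekhg1, Rgs16, Rora, Lef1 and Ntng1, and they were taken by name as 10 of the 54532 rows of the count table. All 10 were among the 19619 genes with enough counts to be tested. The study concerned the lateral habenula as a link between rheumatoid arthritis and depression-like behaviour. All animals were BALB/c mice aged 3 months. The CAIA groups (collagen antibody-induced arthritis) received 50 mg/kg of a cocktail of 5 monoclonal antibody clones against type II collagen by intraperitoneal injection, and 1 mg/kg lipopolysaccharide (LPS) 3 days later. The Ctrl groups received vehicle. LPS exposure and arthritis therefore cannot be told apart in these data. There were 3 female CAIA libraries and 3 female Ctrl libraries, 3 male CAIA libraries and 2 male Ctrl libraries (numbered 1 and 3). Total counts ran from 25317306 to 29565006 per library. The labels do not tie each library to an animal of its own. The p-values therefore describe the spread between these libraries, which may be technical in part. All 10 genes were lowest in the same library, the third female Ctrl one (Female Ctrl 3). Results that rest on it are given with and without it where both were computed.

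The habenula is a small paired nucleus of the epithalamus. Its lateral part signals aversive outcomes to the midbrain, and its medial part holds tightly packed cholinergic and peptidergic neurons. The thalamus below it relays sensory and limbic information to the cortex through glutamatergic neurons, many of which express protein kinase C delta, RORα and netrin-G1. Thalamic tissue borders the dissected nucleus on its lower and outer sides. In bulk tissue such as this, fewer cells of a type and less RNA per cell cannot be told apart.

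By role, Rora encodes the nuclear receptor RORα, and Lef1 the DNA-binding effector of Wnt signalling. Prkcd encodes protein kinase C delta, Ramp3 an accessory subunit of the calcitonin receptor-like receptor, Rgs16 an activator of the GTPase of G protein alpha subunits, and Plekhg1 a guanine nucleotide exchange factor. Adarb1 encodes the adenosine deaminase ADAR2, which edits the GluA2 glutamate receptor transcript. Tnnt1 encodes slow skeletal troponin T, Synpo2 an actin-binding protein and Ntng1 the axonal membrane protein netrin-G1. The genes lie on 7 chromosomes, of which chromosome 3 carries Synpo2, Lef1 and Ntng1 and chromosome 10 carries Adarb1 and Plekhg1 (GENCODE M21 on GRCm38). Other annotated genes overlap 7 of the 10 genes. For Lef1 the overlapping gene with most counts, Gm43352, had 4.33% of the counts of Lef1, and for the others this share was at most 0.305%.

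Since the 10 genes were all lowest in the same library, the 250 bases before each annotated transcription start were read from the RefSeq promoter table (build GRCm38.p6), which gave 14 windows for the 10 genes. They were searched on both strands for the half-site of ROR receptors (AGGTCA) and for the core of TCF/LEF sites (CTTTGA). The ROR half-site was in 0 of the 14 windows and in 14.0% of all 32851 windows of the same length. The TCF/LEF core was in 2 of the 14 windows and in 13.8% of all windows. These 2 windows are printed because they are the only ones among the 14 with a match, which is in capitals and reads TCAAAG, the core on the opposite strand. The Prkcd window is chr14:30626209-30626458 on the minus strand, with the match 139 bases before the start. The Lef1 window is chr3:131156044-131156293 on the plus strand, before a start inside the gene, with matches 180 and 120 bases before that start. A match describes the letters and does not show binding.
Prkcd: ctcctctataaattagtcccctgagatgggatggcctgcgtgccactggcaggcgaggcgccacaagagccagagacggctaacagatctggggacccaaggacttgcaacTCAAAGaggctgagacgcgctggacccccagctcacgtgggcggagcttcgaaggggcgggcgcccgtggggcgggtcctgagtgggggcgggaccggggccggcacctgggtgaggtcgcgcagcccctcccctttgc
Lef1: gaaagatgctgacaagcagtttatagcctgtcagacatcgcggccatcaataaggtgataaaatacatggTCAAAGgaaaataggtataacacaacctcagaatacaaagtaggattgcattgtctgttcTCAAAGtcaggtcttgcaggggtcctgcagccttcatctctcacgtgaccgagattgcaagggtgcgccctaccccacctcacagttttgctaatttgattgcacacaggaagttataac

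Expression of the 10 genes was high enough for counting error to be small. The lowest count of any of them in a library was 298, for Tnnt1 in Female Ctrl 3, where counting alone gives a coefficient of variation of 5.79%. Per length (RPKM on exon lengths), Prkcd had the highest mean level at 89.9 ± 22.6 (SD over 11 libraries), followed by Adarb1 at 73.9 ± 11.9 and Ramp3 at 69.1 ± 17.9. Adarb1 and Ramp3 differed by less than the SD of either, and Prkcd stood above both by less than its own SD but by more than the SD of each of them. These SDs are of single genes and not of differences within a library. Library by library, Prkcd exceeded Ramp3 in every one, and Adarb1 in all but Female CAIA 2 and Female Ctrl 3. Adarb1 exceeded Ramp3 in all but Male CAIA 3 and Male Ctrl 1. Rgs16 was at 42.4 ± 8.54, Ntng1 at 41.5 ± 5.88, Rora at 30.5 ± 5.07 and Plekhg1 at 25.2 ± 4.83 RPKM. Of neighbours in this order, Rgs16 and Ntng1 differed by less than the SD of either, and their order changed between libraries. Rora exceeded Plekhg1 by slightly more than the SD of either, and did so in every library. Synpo2 at 16.7 ± 2.88, Tnnt1 at 10.8 ± 3.59 and Lef1 at 5.10 ± 1.07 RPKM were the lowest. The habenula genes Tac2, which encodes neurokinin B, and Gpr151, an orphan receptor of habenula neurons, had 106 ± 14.0 and 93.2 ± 12.97 RPKM in the same libraries. The difference between Prkcd and either habenula gene was smaller than the spread of Prkcd. All 10 genes of a medial habenula list and all 6 of a lateral habenula list also had enough counts to be tested. The same held for all 14 genes of a choroid plexus list and all 11 of a hippocampus and cortex list. Having enough counts therefore does not tell which tissues were in the dissections.

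Prkcd, in CPM (counts scaled to library sizes adjusted by TMM factors), had 458, 347 and 549 CPM in female CAIA libraries 1 to 3, against 449, 640 and 252 CPM in female Ctrl libraries 1 to 3. In males it had 590, 534 and 427 CPM in CAIA libraries 1 to 3, against 656 and 581 CPM in Ctrl libraries 1 and 3. The lowest value and the highest value both belonged to Ctrl libraries, and all CAIA values lay between them. Ramp3 had 86.6, 77.9 and 106 CPM in female CAIA, against 83.6, 108 and 48.2 CPM in female Ctrl. In males Ramp3 had 100, 95.8 and 92.3 CPM in CAIA, against 150 and 99.4 CPM in Ctrl. The CAIA libraries of both sexes sat close together, and the extremes again were Female Ctrl 3 and Male Ctrl 1. For Rgs16 the values were 103, 88.5 and 115 CPM in female CAIA, against 94.1, 127 and 56.1 CPM in female Ctrl. Male values of Rgs16 were 108, 83.7 and 92.3 CPM in CAIA, against 124 and 101 CPM in Ctrl. The groups overlapped in females, and in males the CAIA library 1 exceeded the Ctrl library 3. Plekhg1 had 233, 200 and 227 CPM in female CAIA, against 200, 271 and 127 CPM in female Ctrl. Its male values were 275, 228 and 199 CPM in CAIA, against 203 and 262 CPM in Ctrl, so that its highest library was a male CAIA one.

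Of the transcription factors, Rora had 435, 352 and 430 CPM in female CAIA, against 355, 491 and 269 CPM in female Ctrl. Male Rora levels were 476, 399 and 352 CPM in CAIA, against 368 and 454 CPM in Ctrl. The CAIA range of Rora in males enclosed both Ctrl values. Lef1 had 40.9, 39.0 and 51.2 CPM in female CAIA, against 35.5, 56.6 and 33.1 CPM in female Ctrl. In males Lef1 had 45.5, 39.3 and 40.5 CPM in CAIA, against 64.1 and 46.7 CPM in Ctrl. Both male Ctrl values of Lef1 exceeded all 3 male CAIA values. Adarb1 had 875, 757 and 872 CPM in female CAIA, against 845, 1066 and 548 CPM in female Ctrl. Male values of Adarb1 were 965, 795 and 723 CPM in CAIA, against 817 and 903 CPM in Ctrl, within the CAIA range.

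Among the cytoskeletal and membrane proteins, Tnnt1 varied most. It had 21.6, 15.9 and 26.6 CPM in female CAIA, against 19.4, 23.9 and 10.1 CPM in female Ctrl. In males it had 31.6, 24.3 and 21.02 CPM in CAIA, against 39.9 and 28.1 CPM in Ctrl. The highest Tnnt1 level was 3.93 times the lowest, the widest range of the 10 genes, and both ends were Ctrl libraries. Synpo2 had 235, 199 and 227 CPM in female CAIA, against 196, 267 and 126 CPM in female Ctrl. Male Synpo2 levels were 259, 226 and 208 CPM in CAIA, against 228 and 233 CPM in Ctrl. The 2 male Ctrl values of Synpo2 lay side by side inside the CAIA range. Ntng1 had 351, 323 and 377 CPM in female CAIA, against 297, 434 and 261 CPM in female Ctrl. In males Ntng1 had 391, 305 and 327 CPM in CAIA, against 368 and 334 CPM in Ctrl. Its highest level was 1.66 times its lowest, the narrowest range of the 10.

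**Figure D1:**
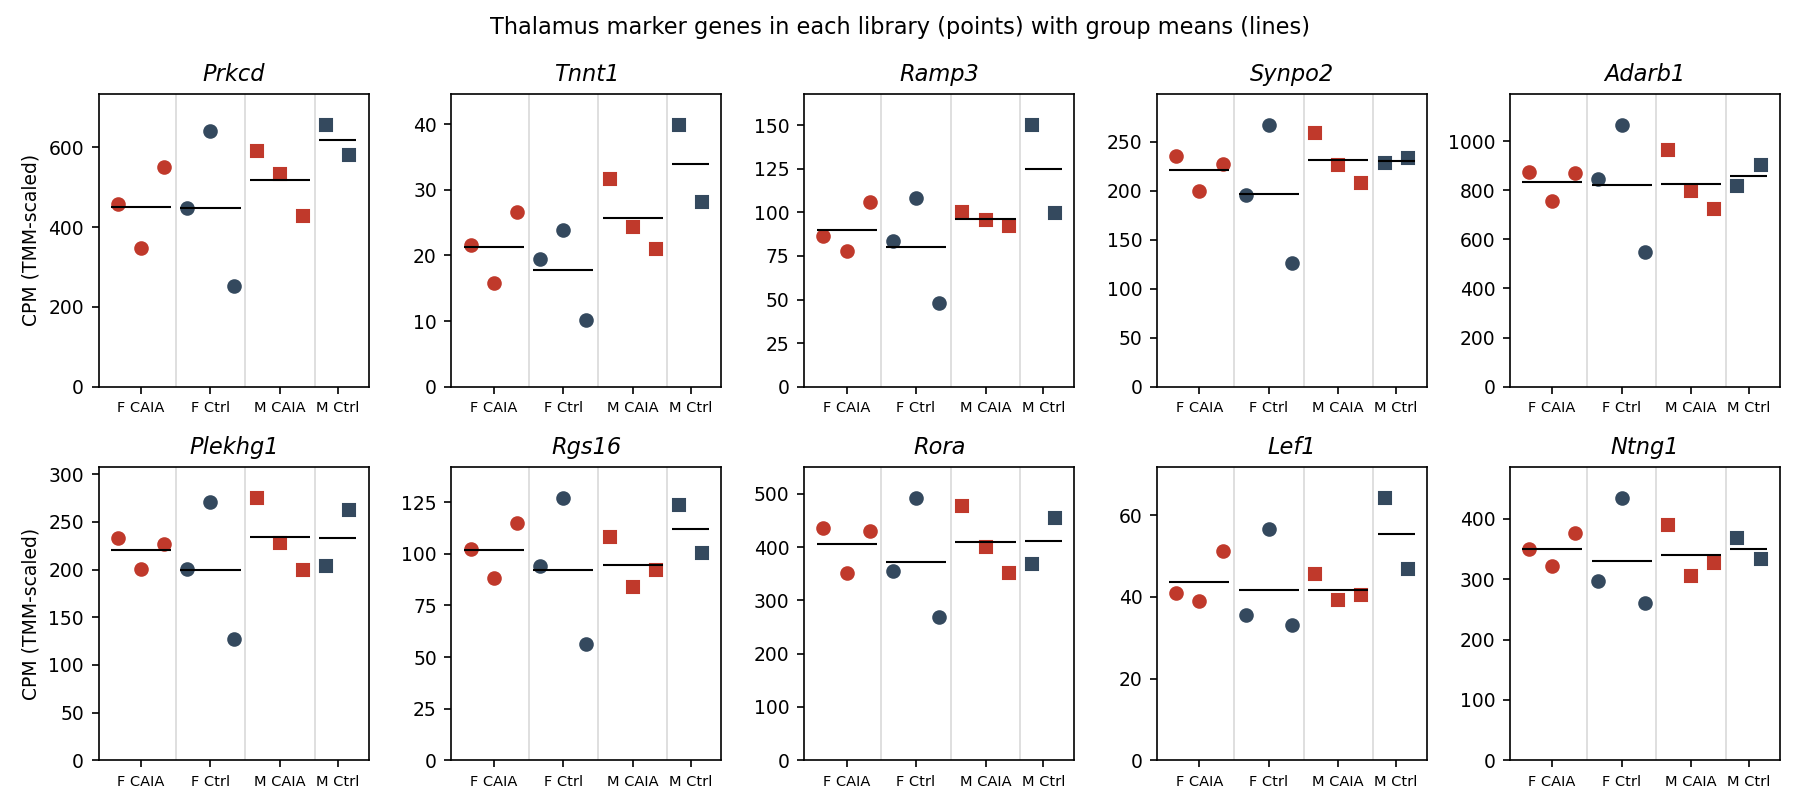
Level of each of the 10 thalamus marker genes (CPM scaled by TMM factors, axes from 0) in each library, one point per library in number order, with F for female and M for male, red for CAIA and blue for Ctrl. Black lines are group means. In every panel the lowest point is Female Ctrl 3, and the points of the female Ctrl group are spread more widely than those of the female CAIA group.

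With both sexes pooled, the CAIA libraries spread less widely than the Ctrl libraries for each of the 10 genes (SD). In males alone the order of the SD was the opposite for Prkcd, Adarb1, Rora, Synpo2 and Ntng1, with only 2 Ctrl libraries. Female Ctrl 3 was the lowest library for 10 of 10 genes. The highest was Female Ctrl 2 for 5 genes, Male Ctrl 1 for 4 genes (Prkcd, Tnnt1, Ramp3 and Lef1) and Male CAIA 1 for Plekhg1. Summed over the 10 genes, the level was between 2399 and 3241 CPM in CAIA libraries (median 2785, n = 6) and between 1731 and 3485 CPM in Ctrl libraries (median 3019, n = 5). The mean of these sums was 2778 ± 314 CPM in CAIA and 2770 ± 664 CPM in Ctrl (SD). The Ctrl mean and SD include Female Ctrl 3 at 1731 CPM, while the other Ctrl libraries had 2575 to 3485 CPM. The near equality of the means therefore rests on that library. Within females, Ctrl library 3 over Ctrl library 2 gave ratios of 0.393 for Prkcd to 0.601 for Ntng1. The summed level over that of Tac2 plus Gpr151 was 7.82 to 10.5 in CAIA libraries and 4.74 to 13.5 in Ctrl libraries. The lowest ratio was that of Female Ctrl 3 and the highest that of Female Ctrl 2.

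The male Ctrl libraries parted the genes from one another. In Male Ctrl 1 over Male Ctrl 3, Ramp3 had a ratio of 1.51, Tnnt1 of 1.42, Lef1 of 1.37, Rgs16 of 1.23, Prkcd of 1.13 and Ntng1 of 1.10. Synpo2 at 0.979, Adarb1 at 0.905, Rora at 0.811 and Plekhg1 at 0.776 stood below 1. With 1 library on each side, these ratios have no replicate check. In the same pair, 12 other thalamus genes had ratios from 0.842 for Hcn4 to 1.51 for Gbx2, a homeobox gene of developing thalamus. The 7 genes of a midline thalamus list had ratios from 0.820 for Npffr1 to 1.63 for Hcrtr1. Calb2, which encodes calretinin and marks the midline thalamus, was at 1.35. The 10 genes thus shared the low library but not the order of Male Ctrl 1 and Male Ctrl 3. Elsewhere their order was shared in part. With libraries ranked from the lowest up for each gene, Female Ctrl 3 had a mean rank of 1. The mean rank was 2.7 in Female CAIA 2, 3.5 in Female Ctrl 1, 9.3 in Male CAIA 1 and 10.1 in Female Ctrl 2. The remaining libraries had mean ranks from 3.7 in Male CAIA 3 to 8.4 in Male Ctrl 1.

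The first comparison asked whether the thalamus markers differed between CAIA and Ctrl tissue with both sexes weighted equally. Of the 10 genes, 0 passed the test (edgeR quasi-likelihood, Benjamini-Hochberg adjusted over all 19619 genes, threshold 0.05), where 117 genes passed in the whole table, 0.596% of those tested. At an unadjusted p under 0.05 there were 0 of the 10 and 1248 of all genes, and DESeq2 and limma-voom called 0 of the 10. The log2 fold changes (CAIA over Ctrl) were positive for 4 genes and negative for 6, with a median of -0.03 against 0.00017 over all genes. Lef1 had the most negative value, -0.17 ± 0.15 (SE; adjusted p = 0.932 in edgeR), from 42.8 ± 4.78 CPM in CAIA and 47.2 ± 13.3 CPM in Ctrl (SD). Synpo2 had the most positive value, 0.09 ± 0.16 (adjusted p = 0.970 in edgeR), from 226 ± 21.2 CPM in CAIA and 210 ± 53.1 CPM in Ctrl. Prkcd was at -0.12 ± 0.23, from 484 ± 90.4 CPM in CAIA and 515 ± 168 CPM in Ctrl. The 95% interval of the fold was narrowest for Ntng1, at 0.848 to 1.21, and that of Tnnt1, at 0.654 to 1.39, was the widest on the log2 scale. Missing the threshold does not show that the groups were alike, and these intervals give the size of change that the data leave room for. For 0 of the 10 genes did all CAIA libraries lie on one side of all Ctrl libraries, against 232 of 19619 genes, or 1.18%. Tac2 was at 0.01 ± 0.10 and Gpr151 at 0.02 ± 0.11 in the same comparison.

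These directions turned with single libraries. Without Female Ctrl 3 all 10 values were negative, from -0.27 for Prkcd to -0.04 for Synpo2, with 0 of 10 passing. Without Female Ctrl 2, 9 were positive, up to 0.23 for Synpo2, and Lef1 stood at -0.03.

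In females, all 10 log2 fold changes were positive (CAIA over Ctrl), from 0.02 ± 0.31 for Prkcd to 0.26 ± 0.32 for Tnnt1 (SE), with a median of 0.13 against -0.0015 over all genes. None passed the test, and edgeR gave an adjusted p of 0.9998 for each, where 51 genes passed in all, 0.26% of those tested. At an unadjusted p under 0.05 there were 0 of the 10 and 1025 of all genes. Tnnt1 had 21.3 ± 5.36 CPM in female CAIA and 17.8 ± 7.02 CPM in female Ctrl (SD, n = 3 each). Prkcd had 451 ± 102 CPM in female CAIA and 447 ± 194 CPM in female Ctrl. The female Ctrl group varied more than the CAIA group for every one of the 10 genes, as for Synpo2, with a coefficient of variation of 8.53% in female CAIA and 35.8% in female Ctrl. Without Female Ctrl 3 all 10 female values were negative, from -0.28 for Prkcd to -0.03 for Tnnt1, and 0 passed.

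In males, 8 of the 10 values were negative, with a median of -0.15. Lef1 was at -0.41 ± 0.22, from 41.8 ± 3.30 CPM in male CAIA (n = 3) and 55.4 ± 12.3 CPM in male Ctrl (SD, n = 2). Tnnt1 was at -0.41 ± 0.35, with 25.6 ± 5.42 CPM in male CAIA and 34.0 ± 8.36 CPM in male Ctrl, and Ramp3 at -0.38 ± 0.30, with 96.1 ± 4.05 CPM in male CAIA and 125 ± 35.9 CPM in male Ctrl. Plekhg1 at 0.0071, Synpo2 at 0.0024 and Rora at -0.0066 stood close to 0. None of the 10 passed, with 0.914 as the smallest adjusted p in edgeR (Lef1), and 0 of the 19619 genes passed in males, which is 0%. At an unadjusted p under 0.05 there were 0 of the 10 and 1104 of all genes, and DESeq2 called 71 genes and 0 of the 10. Without Male Ctrl 1, Ramp3 stood at -0.05 in males, and without Male Ctrl 3 at -0.63.

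**Figure D2:**
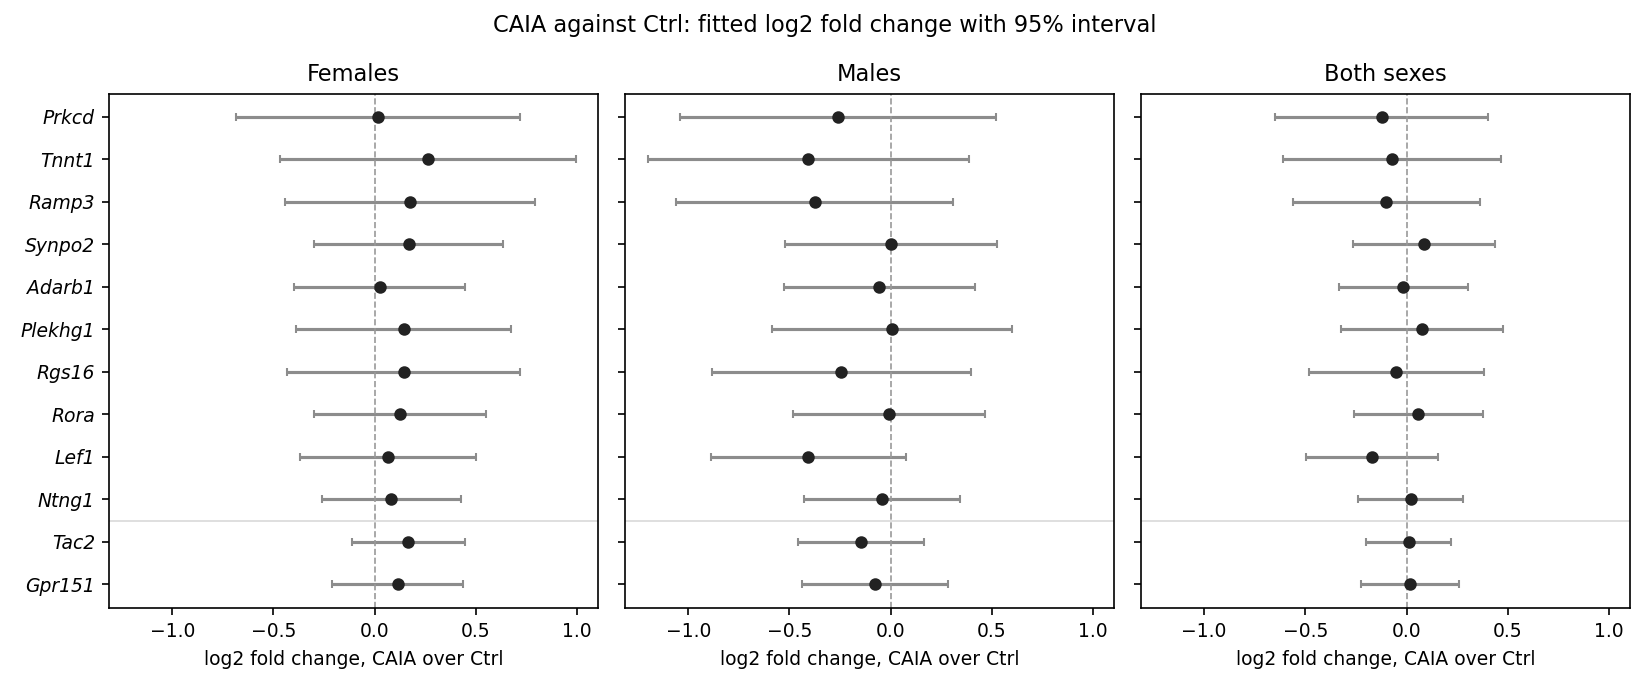
Fitted log2 fold change, CAIA over Ctrl, of the 10 thalamus marker genes and of Tac2 and Gpr151 in females, males and both sexes (points), with 95% intervals from the edgeR fit (bars). All 10 points are to the right of 0 in females, 8 are to the left in males, and every interval of the 10 genes spans 0.

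The opposite signs raise the question of whether the response differed between the sexes. The difference of the 2 effects (female minus male, log2) was positive for all 10 genes, from 0.08 ± 0.29 for Adarb1 to 0.67 ± 0.48 for Tnnt1. It passed for 0 of the 10 and for 0 of all genes in edgeR, 0%, with an unadjusted p under 0.05 for 0 of the 10 and 807 of all genes, while DESeq2 called 2 genes in all. Without Female Ctrl 3, 6 of the 10 differences were negative.

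The 10 thalamus markers were lower in female than in male libraries on average, though none of the 10 passed. With CAIA and Ctrl weighted equally, all 10 log2 fold changes of female over male were negative, from -0.60 ± 0.24 for Tnnt1 to -0.02 ± 0.12 for Ntng1. Tnnt1 had an unadjusted p of 0.0331 and an adjusted p of 0.731 in edgeR, and 9 genes passed in all, 0.0459% of those tested. An unadjusted p under 0.05 was reached by Tnnt1 alone of the 10 and by 1326 of all genes. Without the filter on low counts, 35266 genes entered the fit, the standard error of Tnnt1 was 0.092 in place of 0.238, and Prkcd, Tnnt1 and Ramp3 passed, a change of call whose cause was not tested. Without Female Ctrl 3, 6 of the 10 values were negative, with Tnnt1 at -0.45, and the median was -0.03 in place of -0.15. Over all libraries, 7 of the 12 other thalamus genes were negative (median of the 12, -0.0057). Of the 7 midline thalamus genes, 1 was negative (median of the 7, 0.10).

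The last comparison set the thalamus markers against the habenula genes Tac2 and Gpr151 across libraries, on log2 CPM. The medial and lateral habenula lists did not enter it and are set against the markers further below. Tac2 had 136, 133 and 177 CPM in female CAIA, against 119, 118 and 161 CPM in female Ctrl. In males Tac2 had 145, 158 and 136 CPM in CAIA, against 164 and 161 CPM in Ctrl. Gpr151 had 165, 152 and 204 CPM in female CAIA, against 137, 140 and 204 CPM in female Ctrl. Male levels of Gpr151 were 164, 167 and 148 CPM in CAIA, against 156 and 181 CPM in Ctrl. The female Ctrl library with the lowest thalamus markers, number 3, had the highest Gpr151, level with female CAIA library 3, and the one with the highest thalamus sum, number 2, was among the lowest for both habenula genes. The habenula pair ran together, with Pearson r = 0.84 and Spearman rho = 0.78 over the 11 libraries (permutation p = 0.0011 for Pearson and 0.00615 for Spearman, two-sided, 100000 pairings; adjusted over all genes 0.549 for Pearson).

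Against Gpr151, all 10 thalamus markers had a negative Pearson r, from -0.40 for Adarb1 (permutation p = 0.221; rho = -0.14, permutation p = 0.692) to -0.10 for Lef1 (permutation p = 0.763; rho = -0.03, permutation p = 0.945). Prkcd had r = -0.27 (permutation p = 0.430) and rho = -0.09 (permutation p = 0.794). Against Tac2, 6 of the 10 were negative, from -0.31 for Adarb1 (permutation p = 0.361; rho = -0.24, permutation p = 0.484) to 0.21 for Tnnt1 (permutation p = 0.536; rho = 0.45, permutation p = 0.162). Of the 20 relations, 0 reached a permutation p under 0.05 and 0 passed after adjustment over all genes. Over all genes, 0 passed for Tac2 (0%) and 0 for Gpr151 (0%), with an unadjusted p under 0.05 for 1031 and 1264 genes.

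The negative values against Gpr151 rested on Female Ctrl 3. Without it, 0 of 10 were negative against Gpr151 and 1 of 10 against Tac2, with medians of 0.21 and 0.10. Leaving out the 2 libraries farthest from the median of Gpr151 (Female Ctrl 3 and Female CAIA 3) gave r = 0.23 for Prkcd, 0.39 for Tnnt1 and -0.0014 for Adarb1. Leaving out the 2 farthest from the median of Tac2 (Female Ctrl 2 and Female CAIA 3) gave r = 0.20 for Prkcd, 0.24 for Tnnt1 and -0.20 for Adarb1. Within the 6 CAIA libraries all 20 relations were positive, up to r = 0.83 for Lef1 with Gpr151 (exact permutation p = 0.0667; rho = 0.49) and r = 0.81 for Ramp3 with Tac2 (exact permutation p = 0.0444; rho = 0.94, exact permutation p = 0.0167). The adjusted p was 1 for each of these. Female CAIA 3 had the highest Lef1, Ramp3, Tac2 and Gpr151 of the 6 libraries. The relations within CAIA were not computed without it, so how far they rest on that library was not tested. With the means of the 4 groups removed, all 20 were negative, to -0.55 for Rgs16 with Gpr151 (exact permutation p = 0.412) and -0.54 for Synpo2 with Tac2 (exact permutation p = 0.405). Within the female Ctrl group, library 3 had the lowest level of all 10 markers and the highest Tac2 and Gpr151. The values with group means removed were not computed without it, so how far they rest on it was not tested. No correlation was computed over the 5 Ctrl libraries alone.

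**Figure D3:**
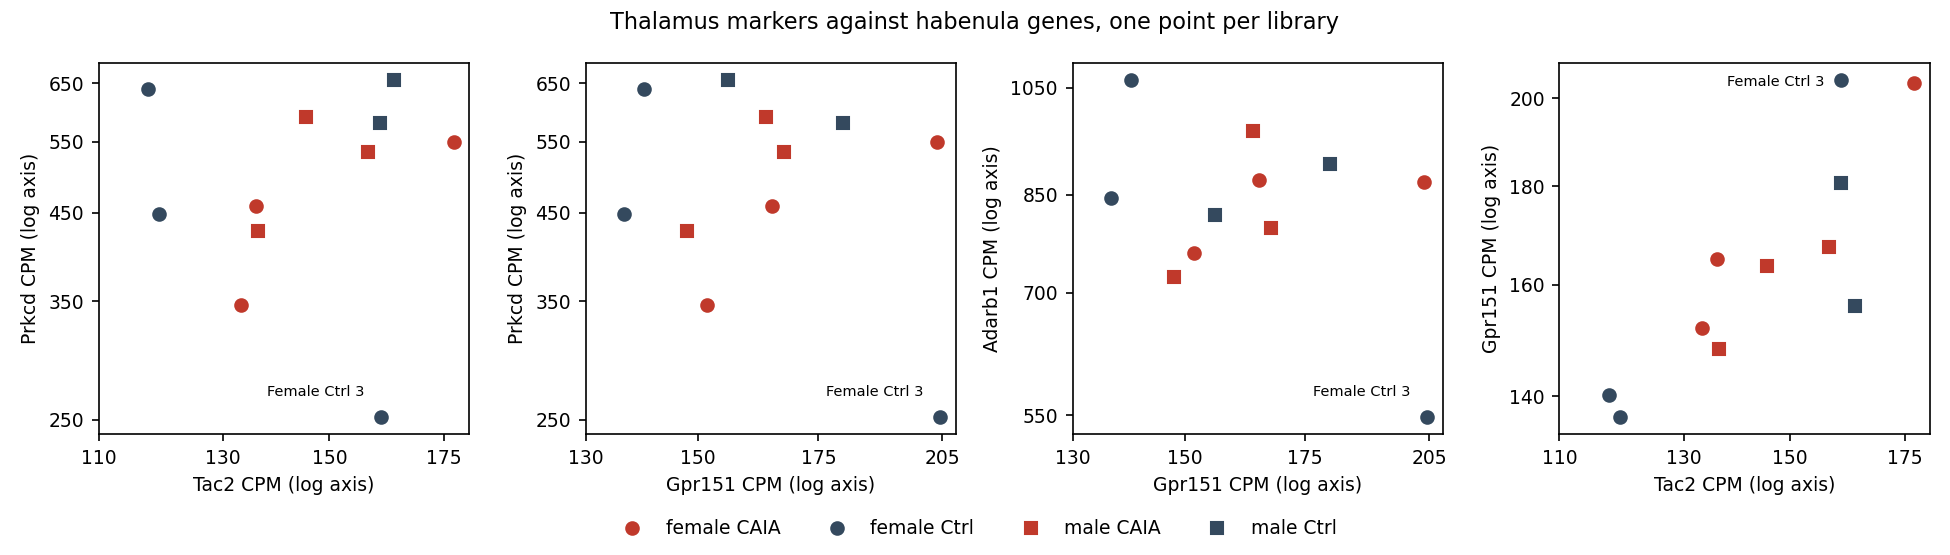
Prkcd against Tac2 and Gpr151, Adarb1 against Gpr151, and Gpr151 against Tac2, in CPM on log axes, one point per library (circles for female, squares for male, red for CAIA, blue for Ctrl). The labelled Female Ctrl 3 lies alone at low Prkcd and Adarb1 and high Gpr151, while in the last panel Gpr151 and Tac2 are high in the same libraries (r = 0.84).

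The name given to the 10 genes was set against other genes of the thalamus and the habenula. The mean profile of the 10 (standardised log2 CPM) was set against each of 15546 other tested genes whose mean reached 1 CPM, as a description over the 11 libraries. Among 12 further thalamus genes, Pearson r with this profile ran from 0.48 for Foxp2 to 0.98 for Ptpn3, a protein tyrosine phosphatase. Cacna1g, which encodes the T-type calcium channel behind thalamic burst firing, had r = 0.91 and the homeobox gene Shox2 0.84. Ptpn3 had 161 CPM in Female Ctrl 3 and 349 CPM in Female Ctrl 2. Among the 6 lateral habenula genes, r ran from -0.06 for Htr2c to 0.57 for Chrm3, so that the lower end of the thalamus list was not set apart from genes of the labelled tissue. The 7 midline thalamus genes had r between -0.17 and 0.59, and Calb2, the most abundant, was at 615 CPM in Female Ctrl 3 and 543 CPM in Female Ctrl 2, the opposite order. All 10 medial habenula genes had a negative r, from -0.55 for Tac1 to -0.03 for Gng8. Without Female Ctrl 3, 6 of these 10 were positive. In the same setting the 12 further thalamus genes had r from 0.42 for Slc17a6 to 0.97 for Ptpn3. Cacna1g stood at 0.81 and Shox2 at 0.59. The lateral habenula genes then ran from -0.10 for Vgf to 0.42 for Plch1. The midline thalamus genes ran from -0.76 for Hcrtr1 (mean 2.43 CPM) to 0.58 for Col12a1.

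The genes with the highest r, led by Ptpn3 at 0.98, included Nrip3, Zdhhc22, Gpr12, Osbpl5, Rab11fip5, Tmem164, Rab37 and Nmnat2. All of these were at 0.96 or above, and all but Nmnat2 (0.89) stayed above 0.9 without Female Ctrl 3. Among the lowest were B4galt1 at -0.96, Fbxo7 at -0.94, the complement gene C3 at -0.94 and Draxin at -0.93. In all, 80 of 15546 genes (0.515%) had r over 0.9, and 23 did without Female Ctrl 3, of which 17 were in both. These correlations share libraries, depth and the same low library.

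Several other marker lists also had their lowest or their highest sum in Female Ctrl 3. That library had the lowest summed level of the 12 other thalamus genes (2176 CPM, against 2470 to 3391 CPM in the other Ctrl libraries) and of the 6 lateral habenula genes (933 CPM). Of these 6, Gap43, Chrm3 and Vgf were lowest there, and Pcdh10 was near its lowest level. Htr2c at 211 CPM and Plch1 at 46.2 CPM were near their highest levels, 215 and 49.6 CPM. The midline thalamus sum was 659 CPM, against 520 to 713 CPM in the other Ctrl libraries. Female Ctrl 3 had the highest summed level of the 10 medial habenula genes (1393 CPM) and the 8 oligodendrocyte genes (6479 CPM). The same was true of the 14 choroid plexus genes (5658 CPM) and the 5 ependyma genes (110 CPM). Choroid plexus genes, which belong to the epithelium that secretes cerebrospinal fluid, were the list that differed by treatment, with summed levels of 248 to 2130 CPM in CAIA and 2723 to 5658 CPM in Ctrl. All 14 had a negative log2 fold change over both sexes (median -2.78), and 6 fell, among them Prlr at -1.65 ± 0.21, Kcne2 at -3.74 ± 0.52, Sostdc1 at -2.37 ± 0.35 and Aqp1 at -3.89 ± 0.59 (log2 ± SE; adjusted p = 0.0118, 0.0249, 0.0377 and 0.0395 in edgeR). The part of these tissue markers in the thalamus values was not tested. Within the thalamus, 0 of the 12 other thalamus genes (median 0.03), 0 of the 7 midline genes (median -0.04) and, in the habenula, 0 of the 10 medial (median 0.04) and 0 of the 6 lateral genes (median 0.00195) passed for CAIA against Ctrl over both sexes. With the level of the medial habenula list as a covariate, 0 of the 10 thalamus markers passed, and Tnnt1, Ramp3, Adarb1 and Rgs16 turned positive, the highest being Rgs16 at 0.042.

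**Figure D4:**
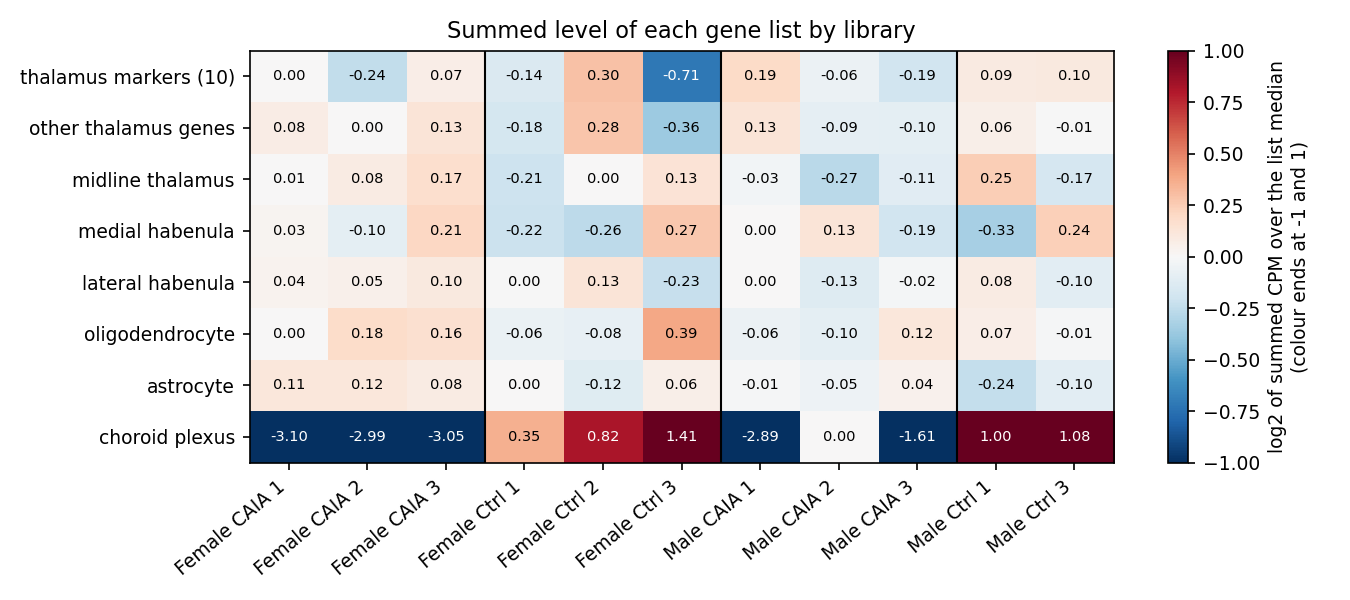
Summed CPM of gene lists in each library, as log2 of the ratio to the median of that list over the 11 libraries; the colour ends at -1 and 1 and the printed numbers run beyond it. Female Ctrl 3 stands at -0.71 for the 10 thalamus markers and at 0.27 for the medial habenula, and the choroid plexus row divides the CAIA from the Ctrl libraries.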

How the data were processed

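The values used are whole-number read counts per gene as deposited, 1 column per library. Per the submitters' processing notes, reads were trimmed (cutadapt 1.9.1), aligned to GRCm38 (HISAT2 2.0.5) and counted (featureCounts 1.5.0-p3). Strand setting and annotation release: not given in the sources used here. Reads of overlapping genes therefore cannot be separated. Every row named a gene. Reads carry no molecular identifiers, so counting errors cover reads only. No pair of libraries within a group agreed within sampling noise (chi-square per degree of freedom 6.59 to 27.7).

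The filter filterByExpr, applied by group, left 19619 genes, and TMM factors were 0.979 to 1.03. A single model of the 4 groups was fitted by quasi-likelihood (edgeR 4.0.16 under R 4.3.3, robust glmQLFit, then glmQLFTest), which left 7 residual degrees of freedom, with Benjamini-Hochberg adjustment over all of these genes. The 5 comparisons were CAIA against Ctrl for both sexes together, for each sex, the difference between the sexes in this effect, and female against male. RPKM used GENCODE M21 exon lengths, to which 54409 gene identifiers matched. Correlations used log2 CPM (prior count 2) and permutation tests with 100000 pairings (720 exact pairings for the 6 CAIA libraries, 432 within groups). Alternatives used DESeq2 1.42.0, limma 3.58.1, other factors and filters, 1 sex alone, an additive model, a covariate, a replicate block, and each library left out.

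The fit was tested on simulated counts with known changes; spread common to many genes was not simulated.

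The 10 genes, the marker lists and the tests were chosen with earlier results of these data known. All 10 genes, Tac2 and Gpr151 are named, with up to 4 genes of lowest p per list, and the 10 genes most and 5 least like the mean profile of the markers, except some that are not reported here.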

Additional observations from a re-analysis of the deposited data

Results flagged for a closer look

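Gpr151 in CAIA libraries stood out in 1 library. Female CAIA 3 had 203.7 CPM, against 167.4 CPM in the next highest CAIA library. The gap took 0.652 of the range of the 6 CAIA values, above Dixon's 95% critical value of 0.625. The same library had the highest Tac2, at 177 CPM. Of 24 groups examined (12 genes in CAIA and in Ctrl), this was the only one past the critical value, and chance alone gives about 1 in 20. Female Ctrl 3, the lowest library for all 10 thalamus markers, did not pass it for any of them. Without Female CAIA 3, the Pearson r with Gpr151 was negative for all 10 markers, from -0.64 for Rgs16 (permutation p = 0.0505, adjusted over all genes 0.570; -0.39 with all libraries) to -0.29 for Lef1.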

How the results depend on the processing

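Counting error was small for the 10 genes (5.79% at the lowest count), and the male Ctrl group held 2 libraries. The number of thalamus markers that passed was 0 in every comparison and under every alternative run, with exceptions only where no filter on low counts was used. There 2 passed for the difference between the sexes (Tnnt1 among them, at 0.68, adjusted p = 0.0284 in edgeR) and 3 for female against male (Prkcd, Tnnt1 and Ramp3), and the cause was not tested. The no-filter setting called 470 genes over both sexes, 452 in females, 423 in males, 316 for the difference and 278 for female against male. DESeq2 called 222, 171, 71, 2 and 23 genes in the same order. The 1-sex fits called 108 genes with females alone and 43 with males alone, and the medial habenula covariate gave 81 in females. The replicate block called 1 gene in males. Libraries shared only a number: deviations of same-numbered libraries of 1 sex correlated at -0.287 to 0.12 over 5 pairs, 2 of 11 libraries correlated best with their own number, and the block changed no call among the 10.

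For CAIA against Ctrl over both sexes, limma-voom put Adarb1 at 0.0052. The medial habenula covariate put Tnnt1 at 0.024, Ramp3 at 0.011, Adarb1 at 0.028, Rgs16 at 0.042, Tac2 at -0.028 and Gpr151 at -0.023, and upper quartile factors put Tac2 at -0.0053. With each library left out in turn, Prkcd ran from -0.27 to 0.054, Tnnt1 from -0.22 to 0.066, Ramp3 from -0.23 to 0.055, Synpo2 from -0.037 to 0.23, Adarb1 from -0.13 to 0.10, Plekhg1 from -0.050 to 0.22, Rgs16 from -0.18 to 0.10, Rora from -0.039 to 0.18 and Ntng1 from -0.055 to 0.14. Tac2 ran from -0.067 to 0.088 and Gpr151 from -0.053 to 0.12. Genes called ran from 43 (without Female CAIA 3) to 180 (without Male Ctrl 3). In females, Prkcd ran from -0.28 to 0.37, Tnnt1 from -0.027 to 0.54, Ramp3 from -0.094 to 0.46 and Lef1 from -0.080 to 0.36, and genes called from 0 (without Female CAIA 1) to 104 (without Male CAIA 2). In males, genes called ran from 0 to 142 (without Male Ctrl 3), and for female against male from 7 (without Female CAIA 1) to 23 (without Male Ctrl 3). Where a male Ctrl library was left out, the remaining one was assumed to vary like the other groups.

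For the correlations, removing group means gave r with Tac2 of -0.28 for Prkcd, -0.25 for Tnnt1, -0.35 for Ramp3 and -0.10 for Lef1. The CAIA libraries alone gave 0.33 for Adarb1 with Tac2, and with Gpr151 0.62 for Prkcd, 0.52 for Tnnt1, 0.70 for Ramp3, 0.52 for Adarb1 and 0.83 for Lef1. Without the 2 libraries farthest from the median of Gpr151, r with Gpr151 was 0.23 for Prkcd, 0.39 for Tnnt1, 0.11 for Ramp3 and 0.055 for Lef1. Over all 11 libraries the Spearman value of Tnnt1 with Gpr151 was 0.15. With each library left out, r with Gpr151 ran from -0.42 to 0.25 for Prkcd, -0.33 to 0.36 for Tnnt1, -0.51 to 0.18 for Ramp3, -0.55 to 0.038 for Adarb1 and -0.31 to 0.20 for Lef1. With Tac2 it ran from -0.065 to 0.37 for Prkcd and -0.10 to 0.49 for Ramp3. Scaling by total counts or by DESeq2 size factors kept the sign of each of these 5 genes with both habenula genes.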
